A study of Mus musculus with 8 samples.

Results

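The 10 Frizzled receptor genes, Fzd1 to Fzd10, were examined in embryonic mouse hippocampi after intrauterine growth restriction (IUGR). The members were chosen by gene symbol alone, and all 10 were found among the 16397 genes of the count table and among the 13707 protein-coding genes tested. The libraries were made from total RNA of hippocampi of C57Bl/6J embryos at E15.5, and there were 4 IUGR samples (T1-1, T1-3, T1-4 and T1-5) and 4 sham samples (S1-4, S1-6, S3-1 and S3-4). IUGR was produced by maternal hypertension: from E12.5 the dams carried a micro-osmotic pump that released U-46619, an analog of the vasoconstrictor thromboxane A2. Sham dams carried a pump with the vehicle, 0.5% ethanol, so that surgery, pump and vehicle were common to both groups. The labels name no engineered allele. Every IUGR sample name begins with T1 and every sham name with S1 or S3, and the sources used here do not say what these prefixes stand for, so the T1 prefix and IUGR cannot be told apart. Nothing in the labels ties the samples to separate dams, and the p values therefore measure the spread between these samples only.

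Frizzled proteins are receptors with 7 membrane-spanning helices and an extracellular cysteine-rich domain that binds Wnt ligands. With the coreceptors Lrp5 and Lrp6 they pass the Wnt signal to Dishevelled and stabilize β-catenin, and with Celsr, Vangl and Prickle proteins they orient cells in the plane of a tissue. In the embryonic forebrain, Wnt ligands from the cortical hem, the dorsomedial margin of the cortex, drive the growth of the hippocampal primordium next to it. Fzd1, Fzd2 and Fzd7 form 1 subfamily by sequence, Fzd5 and Fzd8 another, and Fzd3 and Fzd6, Fzd9 and Fzd10, and Fzd4 the others.

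Each IUGR sample held 12919546 to 16672463 counts and each sham sample 11212632 to 15405748. Levels are given as CPM, counts scaled to a library of 1000000. Values of single samples are given below in the order in which the samples were named above. Of 7 marker genes of hippocampal and cortical field identity, 6 were tested and were detected in every sample, with none called and a median of -0.37 for the log2 fold change. Of the markers of radial glia (9), intermediate progenitors (5), neurons (8), microglia (5) and red blood cells (6), none was called, with medians of -0.10, -0.26, 0.46, 0.30 and 0.38. All 8 neuron markers had higher fitted levels in IUGR. Of these, 5 had an unadjusted p under 0.05 (edgeR), as did 1520 of all 13707 tested genes, 908 of them lower in IUGR. The sums of the neuron markers did not overlap (4967 to 5372 CPM in IUGR, 3583 to 4545 CPM in sham). The part of this in the Frizzled values was not tested. Of 11 choroid plexus markers, 9 were tested, all 9 had lower fitted levels in IUGR and Folr1, Cldn2 and Otx2 were called, and the summed level was 43.0 to 1164 CPM in IUGR against 5385 to 11942 CPM in sham. Of 7 cortical hem markers, 6 were tested, all 6 had lower fitted levels in IUGR and only Lmx1a was called, and they summed to 16.7 to 146.1 CPM (IUGR) and 98.1 to 163.9 CPM (sham). Of 8 meningeal markers none was called (median log2 fold change 1.12), and they summed to 56.0 to 1451 CPM (IUGR) and 183.0 to 378.6 CPM (sham), and sample T1-3 had the highest sum. No choroid plexus or meningeal marker was at 0 in any sample, and Gdf7 was the only hem marker at 0, in 1 sample. In whole tissue, fewer cells of a type and less RNA per cell cannot be told apart.

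A comparison of IUGR with sham asked which Frizzled genes differed in their RNA level. No member passed the criterion of the count test, which was an adjusted p no higher than 0.05 together with a log2 fold change of 1 or more, up or down (quasi-likelihood fit of edgeR, p values adjusted by Benjamini-Hochberg across the 13707 genes), and 1.46% of all tested genes passed it. Fzd7 came nearest and was the only member whose groups did not overlap, with every IUGR sample below every sham sample, a pattern shown by 5.06% of all tested genes. At an unadjusted p under 0.05, 2 members, Fzd1 and Fzd7, had lower levels in IUGR, against 6.62% of all tested genes. Of the 10 members, 6 had fitted levels lower in IUGR and 4 higher, the median being -0.20 on the log2 scale, and over all tested genes 55.5% were lower and the median was -0.02.

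**Figure D1:**
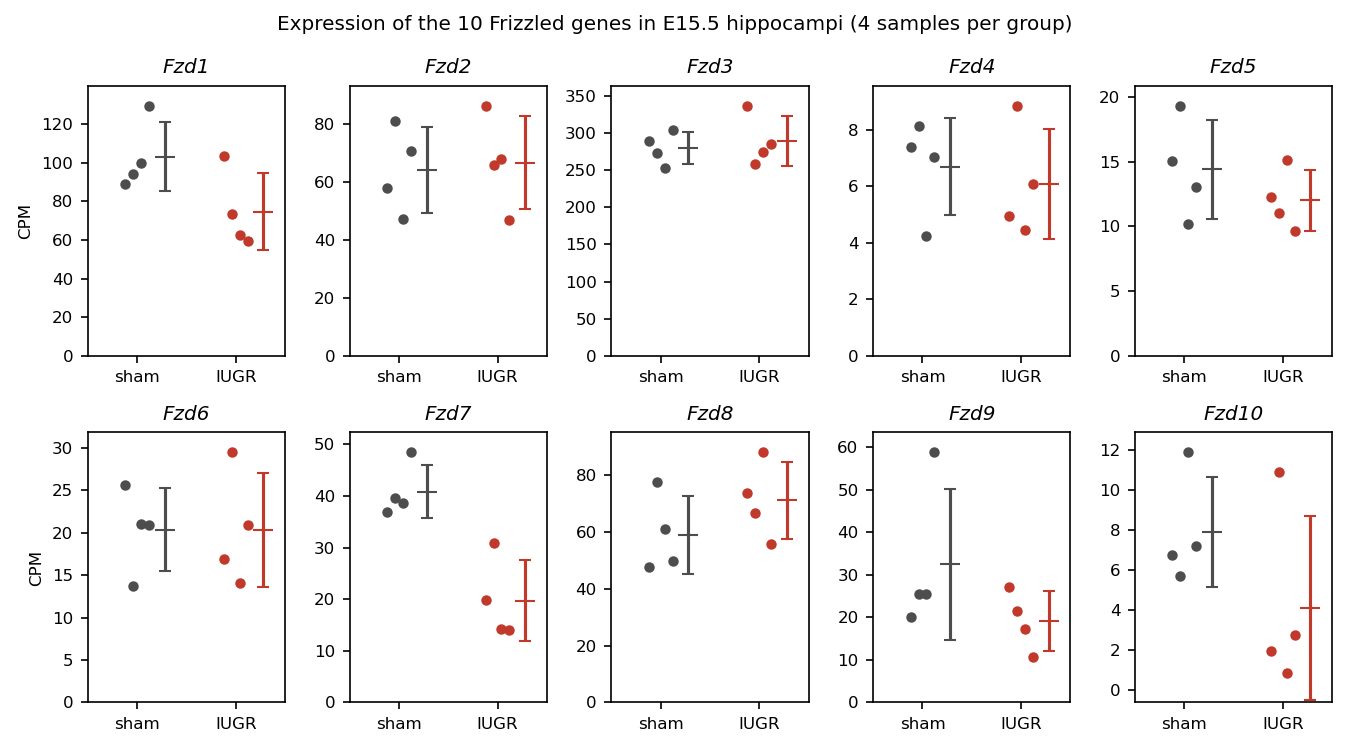
Level of each Frizzled gene in CPM (y axis, a separate linear scale for each gene) in the 4 sham and the 4 IUGR samples (points, in the order of their names), with the mean and SD of each group at its right. Only in the Fzd7 panel do the points of the groups not overlap, and 1 IUGR sample, T1-3, stands above the other IUGR samples for Fzd7 and Fzd10.

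**Figure D2:**
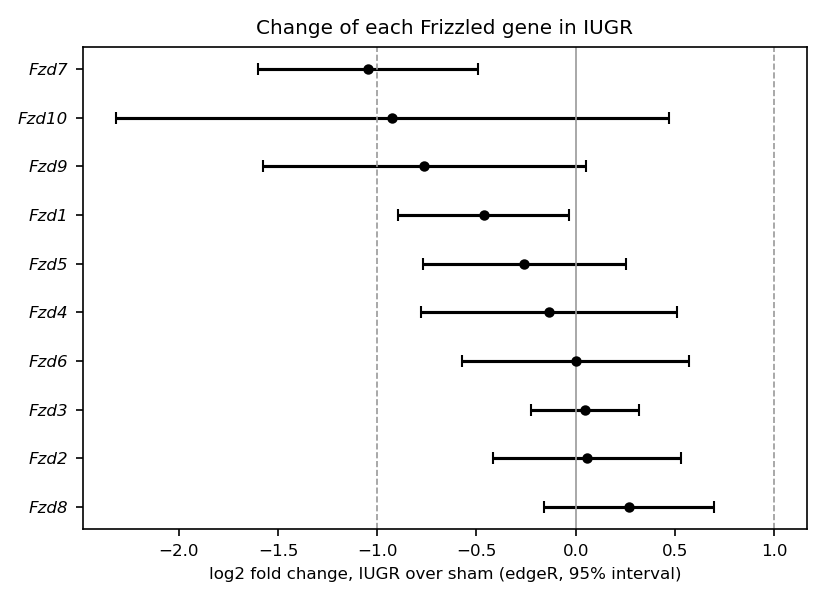
Log2 fold change of each Frizzled gene in IUGR over sham (x axis) with the 95% interval of edgeR's fit, where dashed lines mark a log2 fold change of -1 and 1. The intervals of Fzd7 and Fzd1 lie below 0, and those of the other 8 members span 0.

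Fzd1, Fzd2 and Fzd7 are the closest relatives in the family, and Wnt signals through them mainly stabilize β-catenin. Fzd7, a receptor of neural progenitors and other stem cells, lies on chromosome 1 (chr1:59482424-59486955, GRCm38, as are all positions given here unless another build is named, + strand) as a gene of 1 exon. It was measured at 19.8, 30.9, 14.2 and 14.1 CPM in the IUGR samples and at 36.8, 39.6, 38.6 and 48.4 CPM in the sham samples. The lowest sham sample was above the highest IUGR sample, and T1-3 was the IUGR sample closest to sham. The raw counts behind these values were 168 to 502 in IUGR and 398 to 679 in sham. The fitted level in IUGR was 0.484 of that in sham (95% interval 0.330 to 0.710), a log2 fold change of -1.05 (SE 0.249, edgeR adjusted p = 0.0723). The exact two-sided permutation test of the 8 CPM values gave p = 0.0286, the smallest that 4 samples against 4 allow, and the same exact test gave 0.114 to 0.971 for the other 9 members. The call of Fzd7 depended on the tool, since it passed with DESeq2's Wald test (log2 fold change -1.02, adjusted p = 0.00535, where 2.49% of all tested genes were called lower) and with limma-voom (-1.10, adjusted p = 0.0396, where 2.22% were called lower). Its log2 fold change was between -1.32 and -0.92 over the 20 alternatives, with adjusted p between 0.00535 and 0.441. The authors of the study reported Fzd7 as unaltered, both by their own RNA sequencing analysis and by quantitative PCR of a separate cohort of E15.5 hippocampi.

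Fzd1 is also a gene of 1 exon, on chromosome 5 (chr5:4753839-4758035, - strand). It was measured at 103.4, 73.4, 62.8 and 59.5 CPM in the IUGR samples and at 89.2, 94.4, 99.8 and 129 CPM in the sham samples. T1-1 lay inside the sham range and the other IUGR samples lay below it. The log2 fold change was -0.46 (SE 0.195, 95% interval -0.90 to -0.03, edgeR unadjusted p = 0.0378, adjusted p = 0.391). With 1 sample left out it ranged from -0.63 without T1-1 (edgeR adjusted p = 0.149) to -0.34 without the highest sham sample (adjusted p = 0.849).

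Fzd2, the remaining member of this subfamily, lies on chromosome 11 (chr11:102604396-102608058, + strand). It was measured at 86.2, 65.8, 67.8 and 46.8 CPM in the IUGR samples and at 57.9, 80.9, 47.1 and 70.6 CPM in the sham samples. The groups overlapped over nearly their whole range. The log2 fold change was 0.06 (SE 0.214, edgeR adjusted p = 1.00), and its 95% interval of -0.42 to 0.53 did not reach the fold criterion in either direction.

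Since these genes are alike, the coding sequences of GENCODE release M21 were compared to see how far reads could be shared between them. Identity of the aligned coding sequences was 82.0% for Fzd1 and Fzd2, 78.6% for Fzd1 and Fzd7 and 78.5% for Fzd2 and Fzd7. Over all 45 pairs of members, the longest stretch without a mismatch was 47 bases. The longest runs of the 3 pairs are shown because a read that fell wholly inside one could not be assigned to 1 of the genes, with the read length not given in the sources used here. All 3 are exonic and coding, and are written in the direction of transcription.
Fzd1 (chr5:4756331-4756377, - strand) and Fzd2 (chr11:102605740-102605786, + strand): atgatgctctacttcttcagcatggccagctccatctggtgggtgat
Fzd1 (chr5:4756964-4757010, - strand) and Fzd7 (chr1:59483344-59483390, + strand): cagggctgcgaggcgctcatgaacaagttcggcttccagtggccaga
Fzd2 (chr11:102606064-102606101, + strand) and Fzd7 (chr1:59484298-59484335, + strand): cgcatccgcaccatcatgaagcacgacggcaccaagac
Between the other members of a subfamily the longest shared run was 29 bases for Fzd5 and Fzd8, 24 for Fzd9 and Fzd10 and 20 for Fzd3 and Fzd6.

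A ratio of 2 genes within a sample depends little on the scaling of the library, and 6 ratios of relatives were compared to ask whether they changed unequally. The log2 ratio of Fzd2 to Fzd7 was 2.11, 1.09, 2.25 and 1.72 in the IUGR samples and was 0.65, 1.03, 0.29 and 0.54 in the sham samples. The lowest IUGR ratio was above the highest sham ratio, and the means differed by 1.17, or 2.24-fold (exact two-sided permutation p = 0.0286, adjusted p = 0.171 over the 6 ratios). The log2 ratio of Fzd1 to Fzd7 was nearly the same in the sham samples (1.33 ± 0.08, SD, n = 4) and was 2.38, 1.25, 2.14 and 2.07 in the IUGR samples. T1-3 had a ratio like that of sham and the other IUGR samples lay above all sham samples, and the difference of means of 0.63 did not pass (exact permutation p = 0.143, adjusted p = 0.214). Fzd1 to Fzd2 differed by -0.54 (exact permutation p = 0.0857, adjusted p = 0.171). None of the 6 ratios passed the adjustment, and a single ratio at the smallest p that 4 samples against 4 allow reaches an adjusted p of 0.171 over 6 ratios.

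**Figure D3:**
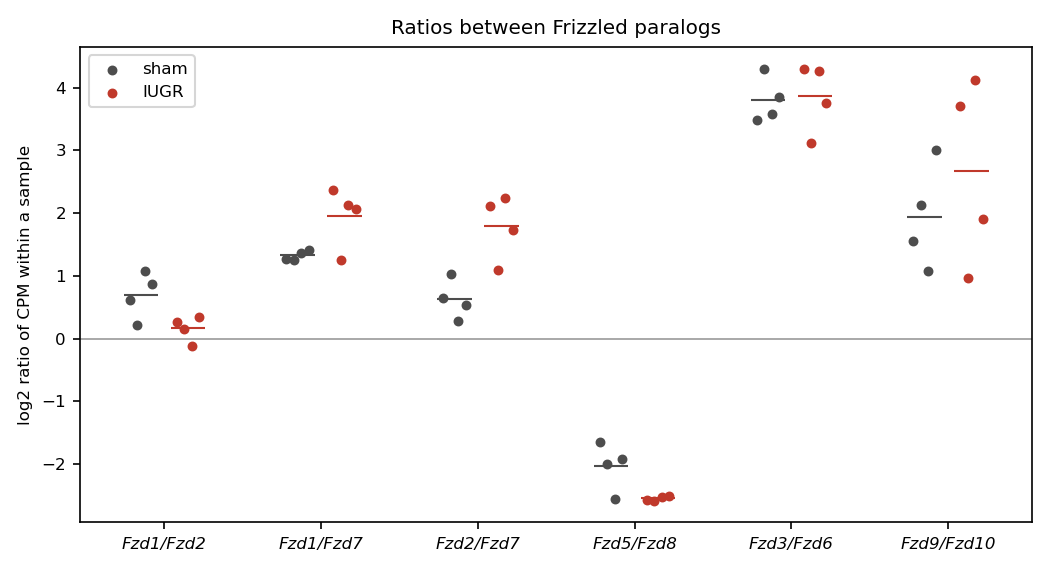
Log2 ratio of the CPM of 2 Frizzled genes within each sample (y axis) for 6 pairs of relatives, with points for samples and a line at the mean of each group. The sham and IUGR points of Fzd2/Fzd7 do not overlap, and the 4 IUGR points of Fzd5/Fzd8 lie within -2.59 to -2.51.

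Promoter sequences from RefSeq (GRCm38.p6) matched 6 of the 10 members, and the 250 bases before the RefSeq start were searched for CTTTG and its reverse complement CAAAG, the core of the element bound by the TCF and LEF factors of Wnt signaling. RefSeq starts differ from the GENCODE gene positions given here: the windows of Fzd7 and Fzd1 lie wholly before the GENCODE start, those of Fzd4, Fzd5 and Fzd9 overlap the gene, and that of Fzd10 lies wholly inside it. The windows of Fzd7 and Fzd1 are shown because these members had the lowest unadjusted p values, with matches in capitals and each in the direction of transcription.
Fzd7 (chr1:59481897-59482146, + strand): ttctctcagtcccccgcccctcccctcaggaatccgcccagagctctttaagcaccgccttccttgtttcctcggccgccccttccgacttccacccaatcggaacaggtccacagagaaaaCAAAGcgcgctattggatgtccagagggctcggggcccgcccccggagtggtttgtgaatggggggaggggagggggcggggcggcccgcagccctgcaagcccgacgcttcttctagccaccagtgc
Fzd1 (chr5:4758217-4758466, - strand): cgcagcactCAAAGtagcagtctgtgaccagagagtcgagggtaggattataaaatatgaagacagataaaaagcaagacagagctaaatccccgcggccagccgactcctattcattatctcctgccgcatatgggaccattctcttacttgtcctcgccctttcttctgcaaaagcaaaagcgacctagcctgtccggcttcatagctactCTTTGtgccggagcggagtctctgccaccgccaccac
Fzd7 held 1 match, Fzd1 held 2 and Fzd10 held 1, and Fzd4, Fzd5 and Fzd9 held none. Such a match was present in 48.6% of the 32851 promoter windows of this length, so that a match is common and is given as a description.

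Fzd9 and Fzd10 form the next subfamily. Fzd10, a receptor of the dorsal neural tube in the embryo, lies on chromosome 5 (chr5:128600844-128604093, + strand). It was measured at 1.95, 10.9, 0.84 and 2.74 CPM in the IUGR samples and at 6.75, 5.71, 11.9 and 7.20 CPM in the sham samples. T1-3 was above 3 of the 4 sham samples, while the other IUGR samples were below all of them. These values rest on few reads, with raw counts of 26, 177, 10 and 36 in the IUGR samples and 66 to 152 in sham. The log2 fold change was -0.93 with the widest interval of the family (SE 0.628, 95% interval -2.32 to 0.47, edgeR adjusted p = 0.794).

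Of the samples left out in turn, T1-3 moved edgeR's values of Fzd10 and Fzd7 most. Without it, the log2 fold change of Fzd10 was -2.06 (edgeR adjusted p = 0.0441) and that of Fzd7 was -1.32 (adjusted p = 0.0160). Both then passed the criterion, where 1.52% of all tested genes were called lower. With any other sample left out neither passed. Fzd10 was then between -1.02 and -0.59 (edgeR adjusted p 0.731 to 0.994) and Fzd7 between -1.08 and -0.92 (0.130 to 0.218). T1-3 had the highest Fzd4, Fzd6, Fzd7 and Fzd10 levels of the IUGR group. It also had the highest IUGR sum of hem markers (146.1 CPM against 16.7 to 52.7 in the others) and the highest value of 5 of the 6 tested ones, with Bmp7 at 76.9 CPM, while Lmx1a, the called one, was at 6.45 CPM in T1-3 and 8.82 in T1-5. Its choroid plexus sum was also the highest (1164 CPM, against 790.3 in T1-5, which had the lowest Fzd7, 64.1 in T1-1 and 43.0 in T1-4), but most of it was Ttr, which was not tested, and without Ttr T1-3 and T1-5 were nearly equal at 198.2 and 196.3 CPM. T1-3 was the highest IUGR sample in all 8 meningeal markers (sum 1451 CPM against 56.0 to 461.1 in the others) and in all 10 markers of endothelium and pericytes (641.4 against 439.8 to 520.9). Its sums of microglial and red blood cell markers were also the highest of the IUGR group. The part of these tissues and cells in the Frizzled values was not tested.

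**Figure D4:**
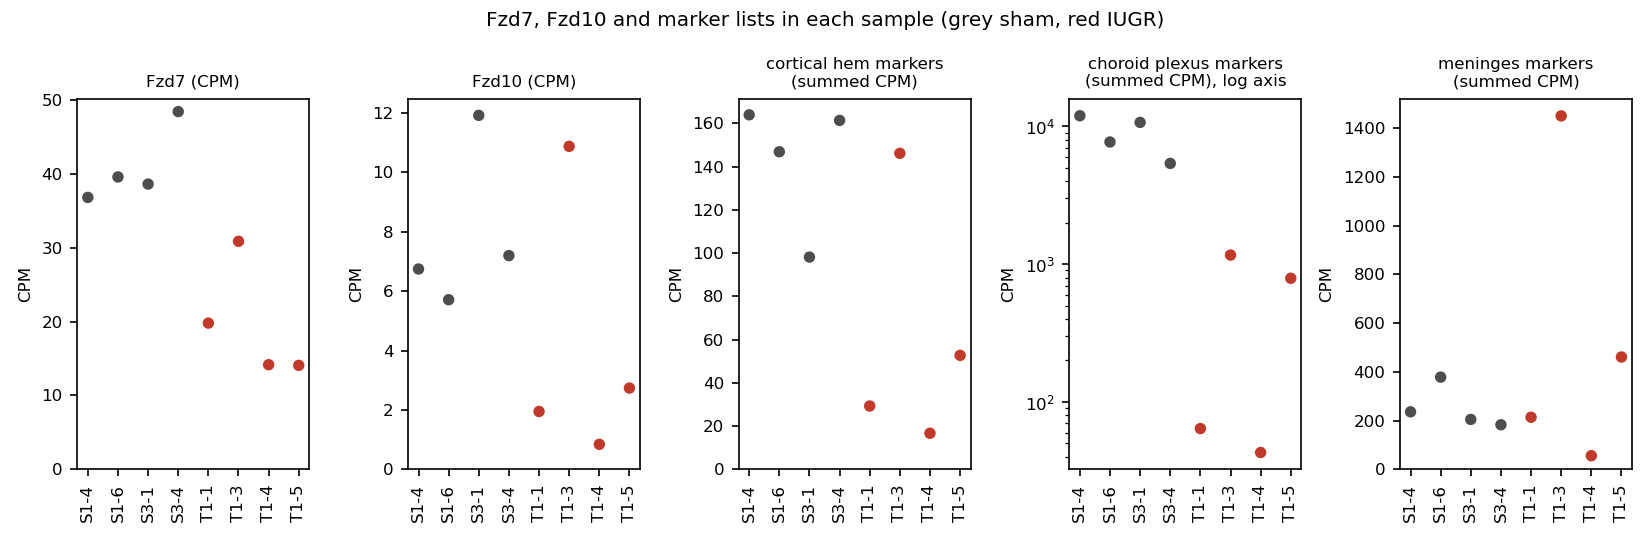
CPM of Fzd7 and Fzd10 and summed CPM of the cortical hem, choroid plexus and meningeal markers (y axes, log axis for choroid plexus and linear from 0 for the others) in each of the 8 samples (x axis, grey for sham and red for IUGR). Within the IUGR group T1-3 is highest in all 5 panels.

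Fzd9, on chromosome 5 as well (chr5:135248938-135251230, - strand), was measured at 27.2, 21.4, 17.3 and 10.6 CPM in the IUGR samples and at 20.1, 25.5, 25.4 and 58.7 CPM in the sham samples. The sham sample S3-4 stood far above the other 7, and the remaining sham samples lay within the IUGR range. The log2 fold change was -0.76 (SE 0.368, 95% interval -1.58 to 0.05, edgeR adjusted p = 0.501), and without S3-4 it was -0.31. Against the S1 samples alone the log2 fold change was -0.25, and against the S3 samples alone it was -1.12. S3-4 was also the highest sham sample for Fzd1, Fzd3 and Fzd7, but not for Fzd2, Fzd4, Fzd5, Fzd6, Fzd8 or Fzd10. It was the highest sham sample as well for Wnt2b, Wnt3a, Wnt8b, Rspo1, Rspo2, Rspo3 and Dkk1, which are described below. The ratio of Fzd9 to Fzd10 did not separate the groups (difference of log2 ratios 0.73, exact permutation p = 0.429, adjusted p = 0.514).

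Fzd5 and Fzd8 are a further pair of close relatives, used in the developing eye and forebrain. Fzd8, on chromosome 18 (chr18:9212163-9218136, + strand), was measured at 55.7 to 88.0 CPM (IUGR) and 47.8 to 77.7 CPM (sham), with a log2 fold change of 0.27 (SE 0.193, 95% interval -0.16 to 0.70, edgeR adjusted p = 0.831). Fzd5, on chromosome 1 (chr1:64730558-64737751, - strand), was measured at 9.66 to 15.2 CPM (IUGR) and 10.2 to 19.3 CPM (sham) (log2 fold change -0.26, SE 0.231, adjusted p = 0.944). Gm38058, a transcript awaiting experimental support, overlaps Fzd5 on the opposite strand over 1512 bases, and with the strand setting not given its reads cannot be told from those of Fzd5. Shorter overlaps with annotated transcripts were found for Fzd3 and Fzd6 (76 to 613 bases). The log2 ratio of Fzd5 to Fzd8 was -2.57, -2.59, -2.52 and -2.51 in the IUGR samples and was -1.66, -2.0, -2.56 and -1.92 in the sham samples. The IUGR samples were alike (SD 0.04, n = 4), the sham samples were spread (SD 0.38, n = 4), and S3-1 lay inside the IUGR range. The difference of means was -0.51 (exact permutation p = 0.0857, adjusted p = 0.171).

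Fzd3 and Fzd6 act in axon guidance, neural tube closure and the planar orientation of cells. Fzd3, on chromosome 14 (chr14:65192449-65262463, - strand), had the most reads of the family and the narrowest interval. It was measured at 258.5 to 336.3 CPM (IUGR) and 252.7 to 303.9 CPM (sham), with a log2 fold change of 0.05 (SE 0.123, 95% interval -0.23 to 0.32, edgeR adjusted p = 1.00). Fzd6, on chromosome 15 (chr15:39006034-39038188, + strand), was measured at 14.1 to 29.4 CPM (IUGR) and 13.8 to 25.6 CPM (sham) (log2 fold change 0.00, SE 0.258, 95% interval -0.57 to 0.57). Of their partners in planar cell polarity (Celsr1 to Celsr3, Vangl1, Vangl2, Prickle1, Prickle2, Ankrd6 and Scrib), 9 of 9 were tested and none was called (median log2 fold change -0.08).

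Fzd4, the receptor of the secreted protein Norrin in blood vessels, lies on chromosome 7 (chr7:89404355-89413134, + strand). It was measured at 4.47 to 8.85 CPM (IUGR) and 4.24 to 8.14 CPM (sham) (log2 fold change -0.13, SE 0.291, 95% interval -0.78 to 0.51). None of its 4 partners was called. Ndp, the gene of Norrin, had a log2 fold change of 0.59 (SE 0.314), Reck of 0.19 (SE 0.271) and Adgra2 of 0.55 (SE 0.513). Tspan12, a cofactor of Fzd4 in endothelium, was at 34.0 to 44.9 CPM (IUGR) and 46.5 to 80.4 CPM (sham), so that its groups did not overlap (log2 fold change -0.61, SE 0.196, edgeR adjusted p = 0.201). Over 10 markers of endothelium and pericytes the median log2 fold change was 0.45 and none was called.

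Levels of different members were compared as CPM per kilobase of exon. In sham the order was Fzd1 (24.6 ± 4.30), Fzd3 (21.8 ± 1.72), Fzd2 (17.5 ± 4.03), Fzd9 (14.1 ± 7.73), Fzd8 (9.88 ± 2.29), Fzd7 (9.01 ± 1.14), Fzd6 (4.22 ± 1.02), Fzd10 (2.43 ± 0.85), Fzd5 (2.08 ± 0.55) and Fzd4 (1.00 ± 0.25, all SD, n = 4). Neighbours in this order overlapped over the samples, apart from Fzd7 and Fzd6 and from Fzd5 and Fzd4. In IUGR the 3 highest were Fzd3 (22.5 ± 2.62), Fzd2 (18.2 ± 4.39) and Fzd1 (17.8 ± 4.76), with Fzd1 above Fzd2 in T1-1 and T1-5 and below it in T1-3 and T1-4. Fzd7, which in sham lay above Fzd6 in every sample, was measured at 3.10 to 6.81 CPM per kilobase in IUGR against 2.92 to 6.11 for Fzd6. It lay above Fzd6 in T1-1 and below it in T1-5, and their order in T1-3 and T1-4 was not settled, since it rested on the length taken for Fzd6. Summed over the 10 members, the level was 91.3 ± 15.1 CPM per kilobase in IUGR and 107 ± 15.2 in sham (SD, n = 4). The share of Fzd7 in this sum was 8.13% to 8.84% in the sham samples and 3.62% to 7.14% in the IUGR samples.

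**Figure D5:**
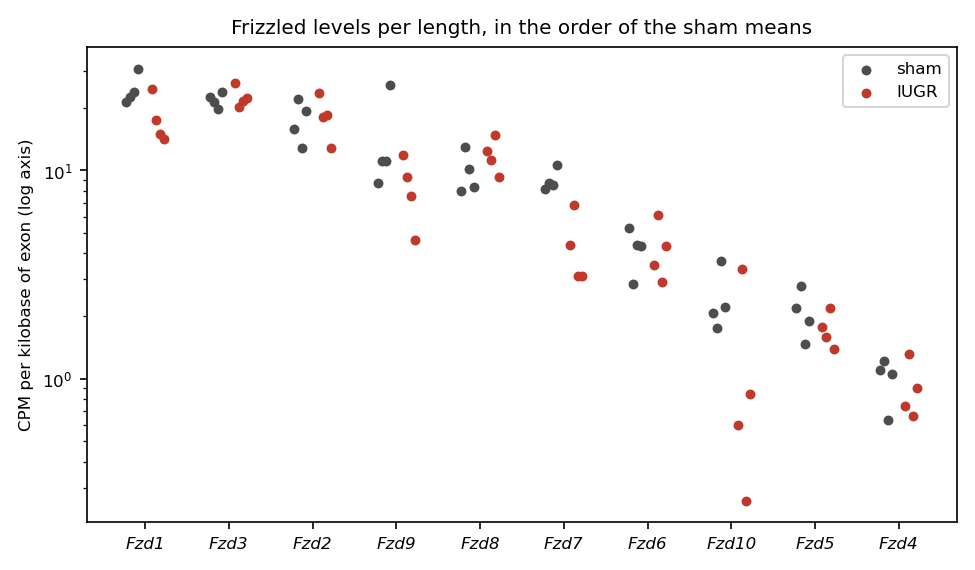
Level of each Frizzled gene in CPM per kilobase of exon (y axis, log axis) in the sham and IUGR samples (points), with genes in the order of their sham means. Levels range from a mean of 24.6 for Fzd1 to 1.00 for Fzd4 in sham, and the range of Fzd7 overlaps that of Fzd6 in IUGR and not in sham.

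The other genes of the pathway were described by lists, beside the 1.36% of all tested genes that were called lower in IUGR. Of 19 Wnt ligand genes, 13 were tested, 3 were called lower and none higher, and the median log2 fold change was -0.50. Wnt3a, a ligand of the cortical hem, was at 0.52 to 2.43 CPM (IUGR) and 8.41 to 19.4 CPM (sham), a log2 fold change of -3.03 (SE 0.437, edgeR adjusted p = 0.0114). Wnt2b was at 1.12 to 5.96 CPM (IUGR) and 10.2 to 29.7 CPM (sham) (log2 fold change -2.40, SE 0.505), and Wnt8b was at 7.72 to 13.8 CPM and 17.6 to 54.3 CPM (-1.61, SE 0.333). The IUGR and sham values of these 3 ligands did not overlap, nor did those of Wnt9a and Wnt10a, 5 of the 13 tested ligands against the 5.06% of all tested genes given above. With any 1 sample left out Wnt3a kept its call (adjusted p at most 0.0404), whereas Wnt2b lost it without any sample but T1-3 (adjusted p up to 0.139) and Wnt8b lost it without T1-1, T1-3, T1-4, S1-4, S1-6 or S3-4 (up to 0.128). Wnt5a, Wnt7a and Wnt7b, at 34.4 CPM or more in every sample, were not called, with a log2 fold change of -0.40 (SE 0.240) for Wnt5a, 0.12 (SE 0.185) for Wnt7a and -0.78 (SE 0.299) for Wnt7b. Wnt9a (-1.81, SE 0.446), Wnt10a (-2.32, SE 0.515), Wnt3 (-0.47, SE 0.467), Wnt11 (-0.50, SE 0.683) and Wnt5b (-0.02, SE 0.221) did not pass, nor did Wnt4 (1.16, SE 0.631) and Wnt6 (1.74, SE 0.819), both of which were highest in T1-3. Wnt2 and Wnt16 were below the count filter.

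Of 9 genes that govern the turnover of Frizzled proteins at the cell surface, 8 were tested, 3 were called lower and none higher (median log2 fold change -1.20). The 3 were the R-spondins, secreted proteins that protect Frizzled receptors from degradation. Rspo2 was at 1.20 to 8.82 CPM (IUGR) and 27.6 to 67.2 CPM (sham) (log2 fold change -2.88, SE 0.499, edgeR adjusted p = 0.0239). Rspo1 was at 4.42 to 6.64 CPM (IUGR) and 12.7 to 36.0 CPM (sham) (-1.96, SE 0.334), and Rspo3 was at 18.3 to 48.4 CPM (IUGR) and 65.3 to 110.1 CPM (sham) (-1.34, SE 0.283). Rspo1 lost its call without T1-1 or T1-4 (adjusted p up to 0.0731), Rspo2 without T1-4, S1-4 or S3-4 (up to 0.0667) and Rspo3 without any sample but T1-5 (up to 0.141). Rnf43, a ubiquitin ligase that removes Frizzled proteins from the membrane, was at 1.95 to 3.87 CPM (IUGR) and 5.73 to 10.7 CPM (sham), with no overlap, and did not pass edgeR's test (-1.37, SE 0.305, adjusted p = 0.0571, and 0.0465 without T1-3), whereas it passed with DESeq2 (adjusted p = 0.00428) and limma-voom (0.0473). Its relative Znrf3 overlapped between the groups (-0.42, SE 0.213), and of the R-spondin receptors Lgr4, Lgr5 and Lgr6 none was called.

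No gene was called among the 8 tested of 10 coreceptors and other Wnt receptors (median log2 fold change -0.11), and Lrp5 had a log2 fold change of -0.29 (SE 0.287) and Lrp6 of -0.04 (SE 0.143). None was called among 4 tested secreted Frizzled-related binders (median 0.02) or among the 8 genes of Dishevelled and the β-catenin destruction complex (median -0.02). Of 9 genes often read as targets of Wnt signaling, 1 was called (median log2 fold change -0.53). This was Dkk1, an inhibitor of Lrp5 and Lrp6 and a target of the pathway, at 0.08 to 0.25 CPM (IUGR) and 1.47 to 2.0 CPM (sham) (log2 fold change -3.12, 95% interval -4.05 to -2.20, edgeR adjusted p = 0.00998, and at most 0.0412 with any 1 sample left out). The values of Dkk1 rest on few reads, since its mean count did not reach 50, and under that filter it was not fitted. Of the 9 target genes, 6 had fitted levels lower in IUGR and 3 higher. Axin2 (-0.69, SE 0.258), Lef1 (-0.67, SE 0.364) and Sp5 (-1.26, SE 0.361) did not pass. The groups of Sp5 did not overlap (1.83 to 5.47 CPM in IUGR, 6.12 to 10.8 CPM in sham). With Dkk1 this made 2 of the 9 genes, against 5.06% of all tested genes. The 3 higher genes were Ccnd1 (0.49, SE 0.243), Tcf7 (0.44, SE 0.456) and Notum (0.56, SE 0.523), and none was called.

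The genes whose log2 CPM followed Fzd7 and Fzd10 most closely over the 8 samples were sought among the 11906 tested genes whose mean count reached 50. For Fzd7 they included Qsox1 (Pearson r = 0.984), Abhd14a (0.984), Ccdc157 (0.984) and Plcd1 (0.972). For Fzd10 they were 1110007C09Rik (0.986), Leprel4 (0.974), Eml2 (0.973), Ifitm2 (0.968) and Parp12 (0.966). These are the highest of 11906 values over samples that share their 2 groups, and are given as a description. None of these 9 genes was called between IUGR and sham.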

How the data were processed

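Per the labels and the methods, ribosomal RNA was removed from total RNA, and stranded libraries were sequenced as single reads. The authors aligned reads to GRCm38 and deposited raw counts per gene. Novoalign 2.8 stands in the submitters' processing notes. The counting program, annotation and strand setting are not given in the sources used here. Identifiers were matched to GENCODE M21 (16124 of 16397), and 13707 protein-coding genes whose mean count was 10 or more, and below 50000, were kept. Counts were tested in R 4.3.3 with edgeR 4.0.16 (TMM, quasi-likelihood test, two-sided, Benjamini-Hochberg adjustment), checked on simulated data for 4 against 4 samples (200 genes changed 4-fold or 8-fold among 13707, of which edgeR recovered 200 with 1 false call). Recovery of changes smaller than 4-fold, such as those fitted for the members over all samples, was not tested. CPM used library sizes scaled by TMM, and 2 was the prior count for log2 CPM and ratios. DESeq2 1.42.0 and limma 3.58.1 (voom) were alternatives, with other scalings, filters and samples left out. SE was the log2 fold change over the square root of the F statistic. All 10 members are named, with called list genes, Wnt ligands, Lrp5, Lrp6 and the 5 genes most like Fzd7 and Fzd10, of which 1 is not reported here. Other genes were named after their values were seen. No samples of a group agreed within sampling noise (chi-square per degree of freedom 29.5 to 78.8 over 12 pairs). Members and lists were chosen with earlier results of these data known. Fzd10 (10 to 177 reads per sample) and Fzd4 (53 to 144) had the fewest reads, and Fzd10 and Fzd9 the largest SE.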

Additional observations from a re-analysis of the deposited data

Results flagged for a closer look

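The Fzd9 level of the sham sample S3-4 was 58.7 CPM, far from the other sham samples (20.1 to 25.5 CPM), with a gap of 0.858 of the group's range. Of 20 groups examined in this way (10 members in 2 groups) it was the only one, and chance gives about 1 in 20.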

How the results depend on the processing

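The number of genes called was 425 with DESeq2, 328 with limma-voom, 73 at a mean count of at least 50, 41 to 298 with 1 sample left out, 0 against the S1 samples alone (1053 at an unadjusted p under 0.05) and 2 against the S3 samples alone, in place of 200. The number of members called was 1 with DESeq2, 1 with limma-voom and 0 to 2 with 1 sample left out, in place of 0, and 0 otherwise apart from the fits on 5 samples given last. Fzd1, Fzd7, Fzd8, Fzd9 and Fzd10 kept their direction under all 20 alternatives, as did the 7 called genes of the pathway lists and Rnf43 under those that could be fitted (added after seeing the data), but all 7 lost their call against the S1 or the S3 samples alone. Other scalings and filters also ended calls: Wnt2b with DESeq2 size factors, upper-quartile factors, the robust fit, a mean count of at least 50 and all biotypes, Rspo3 with upper-quartile factors, a mean count of at least 50 and all biotypes, and Wnt8b with upper-quartile factors and a mean count of at least 50. Members near a log2 fold change of 0 changed sign, with 1 sample left out: Fzd2 ranged from -0.067 to 0.22, Fzd3 from -0.0030 to 0.13, Fzd4 from -0.35 to 0.00084 and Fzd6 from -0.20 to 0.15. Against the S1 samples alone Fzd2 was at -0.059, against the S3 samples alone Fzd5 was at 0.075, Fzd4 at 0.13 and Fzd6 at -0.022, and with limma-voom Fzd6 was at -0.00076. The log2 ratio of Fzd3 to Fzd6 differed by -0.083 to 0.31 with 1 sample left out and by -0.027 against the S1 samples alone. The causes were not tested. With the longest coding transcript as length, chosen after seeing the data, Fzd6 was at 4.70 in place of 4.22 CPM per kilobase in sham, still below Fzd7 in every sham sample, but above it in T1-4 (3.25 against 3.12, in place of 2.92) and level with it in T1-3 (both 6.81). The numbers 1 and 4 occur in sample names of both groups (T1-1 and S3-1, and T1-4, S1-4 and S3-4), but no source says that they pair samples, and deviations from the group means of same-numbered samples correlated at -0.11 to 0.09 across genes. Over these 5 samples, chosen after seeing the data, edgeR called 509 genes without and 442 with the replicate block, and 2 members (Fzd7 and Fzd10) in both, with Fzd5 at 0.15 and 0.23 and Fzd6 at -0.50 and -0.49. Wnt8b was called in neither of these fits, and Dkk1 and Rspo1 lost their call with the block.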
